A study of Mus musculus with 38 samples.

Results

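The chromatin sites described here are MEF (mouse embryonic fibroblast) ATAC-seq peaks that were still called late in the SALL4-WT cultures and were no longer called in the SALL4-delN12 cultures. They were chosen from the measured peak lists: a MEF peak with a score of at least 100 that overlapped, by 1 bp or more, a peak at day 9 and at day 11 with SALL4-WT, and no peak at day 9 or day 11 with SALL4-delN12. Of the 75284 MEF peaks with a score of at least 100, 2369 (3.15%) met these terms and are called members below. MEFs were taken from E13.5 embryos of OG2 mice, which carry an *Oct4*-GFP reporter, crossed with 129S4/SvJaeJ mice, and they received by pMXs retrovirus either full-length *Sall4* (SALL4-WT) or *Sall4* without the N-terminal 12 residues (SALL4-delN12). No other factor and no BMP4 was added, the medium was iCD3, and cells were collected at days 1, 5, 9 and 11 for ATAC-seq and RNA-seq and at day 6 for Cut&Tag of SALL4 and of H3K27ac, a histone mark of active promoters and enhancers. The cultures were unsorted mixtures in which a part of the cells converts. Each form and day has 1 peak list or expression column (9 for ATAC-seq, 4 for Cut&Tag, whose replicates the authors merged, and 8 for RNA-seq), so the forms could not be tested at a single day. No test across days was run, nothing below carries a p-value, and a difference between the forms cannot be told apart from a difference between cultures.

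SALL4 is a zinc finger transcription factor of early embryonic and germ cells that binds AT-rich DNA, and its N-terminal residues recruit NuRD, a complex that combines nucleosome remodelling with histone deacetylation and is known for closing chromatin. Fibroblast enhancers are commonly held open by AP-1, TEAD, RUNX and NFI factors, while CTCF occupies insulators and loop anchors that are shared by many cell types. The SALL4 forms drive fibroblasts toward primitive endoderm (PrE), the extra-embryonic layer marked by GATA4, GATA6 and SOX17.

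The sequences of 6 members are shown first, as examples of some of the strings that are compared between classes below. Each run is the 200 bp around the peak centre, from the plus strand of mm10 (GRCm38), and none of these sites had a day 9 or day 11 delN12 peak within 500 bp. Capitals mark the AP-1 string TGANTCA in the first and second, the CTCF motif in the third and (minus strand) the fourth, the NFI string TTGGCA in the fifth and the KLF string GGGTGTGG (minus strand) in the sixth. The names are those of the gene with the nearest start site.
Papln, chr12:83792782-83792981: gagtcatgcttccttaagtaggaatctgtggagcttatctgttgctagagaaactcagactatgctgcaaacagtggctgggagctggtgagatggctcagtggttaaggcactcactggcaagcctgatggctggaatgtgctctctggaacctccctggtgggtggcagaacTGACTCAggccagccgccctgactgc
Cdk14, chr5:5326855-5327054: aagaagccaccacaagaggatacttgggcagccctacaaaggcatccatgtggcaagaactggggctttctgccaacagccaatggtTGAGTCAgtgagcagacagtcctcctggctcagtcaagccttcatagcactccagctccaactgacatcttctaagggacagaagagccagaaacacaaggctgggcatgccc
Myl2, chr5:122114334-122114533: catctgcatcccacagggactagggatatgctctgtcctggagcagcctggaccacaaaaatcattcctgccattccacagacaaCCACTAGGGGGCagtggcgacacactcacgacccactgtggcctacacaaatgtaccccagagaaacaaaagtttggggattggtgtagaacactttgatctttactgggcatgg
Ppp1r3g, chr13:35947448-35947647: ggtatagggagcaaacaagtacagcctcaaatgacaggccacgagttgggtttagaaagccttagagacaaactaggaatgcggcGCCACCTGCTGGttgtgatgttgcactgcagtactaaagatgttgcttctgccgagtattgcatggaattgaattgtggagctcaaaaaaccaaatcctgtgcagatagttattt
Sptbn1, chr11:30243591-30243790: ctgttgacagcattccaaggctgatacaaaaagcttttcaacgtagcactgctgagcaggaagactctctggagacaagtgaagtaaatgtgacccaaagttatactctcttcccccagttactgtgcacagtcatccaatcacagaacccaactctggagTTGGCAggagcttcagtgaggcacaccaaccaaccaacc
St5, chr7:109600724-109600923: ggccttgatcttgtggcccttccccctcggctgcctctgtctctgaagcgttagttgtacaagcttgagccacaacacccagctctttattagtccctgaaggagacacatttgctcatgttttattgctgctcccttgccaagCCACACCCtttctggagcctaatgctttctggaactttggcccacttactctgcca
The *Papln* site lies between genes, 29228 bp from the start site, and the *Cdk14*, *Sptbn1* and *St5* sites lie in introns of those genes. The *Myl2* site is in an intron of *Ccdc63*, 10521 bp from the start site of *Myl2*, and the CTCF site near *Ppp1r3g* is 11291 bp from that gene's start.

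The score of a peak is the MACS value that grows as the p-value of the peak falls, with a floor of 50 in all 9 ATAC-seq lists, and it is not scaled between libraries. The lists held 78517 peaks (delN12 day 11) to 98422 peaks (WT day 5) in the infected cultures and 125470 in MEFs, of which 75284 scored at least 100. The numbers of reads behind the lists are not given in the sources used here. The other late classes of the same MEF peaks serve for comparison. The mirror sites (2184, 2.90%) had a peak at both late days with delN12 and none with WT, the kept sites (34419) had a peak in all 4 late libraries, and the closed sites (16104) in none of them. Of the RNA markers, 5 of 11 fibroblast genes were lower by at least 1 on the log2 scale with delN12 at day 11 and 0 were higher. Of all genes tested, 6.23% were lower and 6.20% higher by that much. The summed FPKM of the 11 was 1105, 1978, 1917 and 2193 with WT and 2303, 2161, 2134 and 1945 with delN12 at days 1, 5, 9 and 11. The sum was the higher one with delN12 until day 9, but *Col1a1* made up much of it. That gene read 472, 693, 727 and 755 FPKM with WT and 1666, 1424, 1356 and 1065 with delN12. By count, 6 of the 11 were lower and 2 higher by at least 1 at day 5, against 4.71% and 4.23% of all genes. At day 9, 6 were lower and 1 higher, against 5.26% and 5.57%. The summed FPKM of the 12 PrE genes was 479 with delN12 and 72.6 with WT at day 11, and that of 10 macrophage genes was 1199 and 194. At days 1, 5 and 9 the macrophage sum was 421, 518 and 574 with delN12 and 415, 204 and 170 with WT. Macrophage and PrE markers thus stood higher with delN12 at both days that chose the members, and their part in the results was not tested. The 10 endothelial markers summed to 7.62 to 21.0 FPKM over the 8 libraries and the 9 pluripotency markers to at most 6.87 FPKM. *Sall4* itself, transgene and endogenous gene together, read 290 to 549 FPKM with WT and 428 to 971 FPKM with delN12, and the deletion cannot be read from these values. In such mixtures, fewer cells of a type and less RNA or less opening per cell cannot be told apart.

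The members were modest MEF peaks. Their median MEF score was 178, against 222 for the mirror sites, 161 for the closed sites, 468 for the kept sites and 250 for all MEF peaks above the limit. Their late WT peaks stood close to the floor, with a median score of 93.5 at day 9 (range 50.01 to 1469) and 90.3 at day 11 (range 50.01 to 2013), whereas the kept sites had medians of 259 and 294. Both late WT peaks scored at least 100 in 624 members (26.3%) and at least 150 in 209. In 602 members the smaller of the late WT scores was under 60. At the edges of the rule, the 3 lowest MEF scores of members were 100.03, 100.04 and 100.06, and the 3 highest of peaks with the same late pattern just outside were 99.97, 99.96 and 99.93, with 2082 such peaks under 100 in all. A further 5494 MEF sites had both late WT peaks and 1 of the late delN12 peaks, with a median score of 89.7 for that peak, and 3776 of them kept it at day 9 only and 1718 at day 11 only. These sites were 1 late delN12 peak short of the rule.

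A late delN12 peak stood close by at part of the members. The nearest one was 0 to 100 bp away at 181 members (7.64%) and over 100 but under 500 bp away at 211 (8.91%), so at 392 members (16.5%) a late delN12 peak lay within 500 bp of the MEF peak without overlapping it. At 1977 members (83.5%) the nearest late delN12 peak was at least 500 bp away, and the median over all members was 5343 bp. Promoters were more frequent at small distances: 80 of the 181 nearest members (44.2%) were within 2 kb of a start site, against 126 of 1225 (10.3%) where the distance was over 5 kb. Ranked by the smaller late WT score, 10 of the first 12 members and 25 of the first 100 had a late delN12 peak within 500 bp. At the limit itself, 24 members had a late delN12 peak 0 to 10 bp away, and 19 MEF sites with both late WT peaks were left out by an overlap of 1 to 10 bp.

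**Figure D1:**
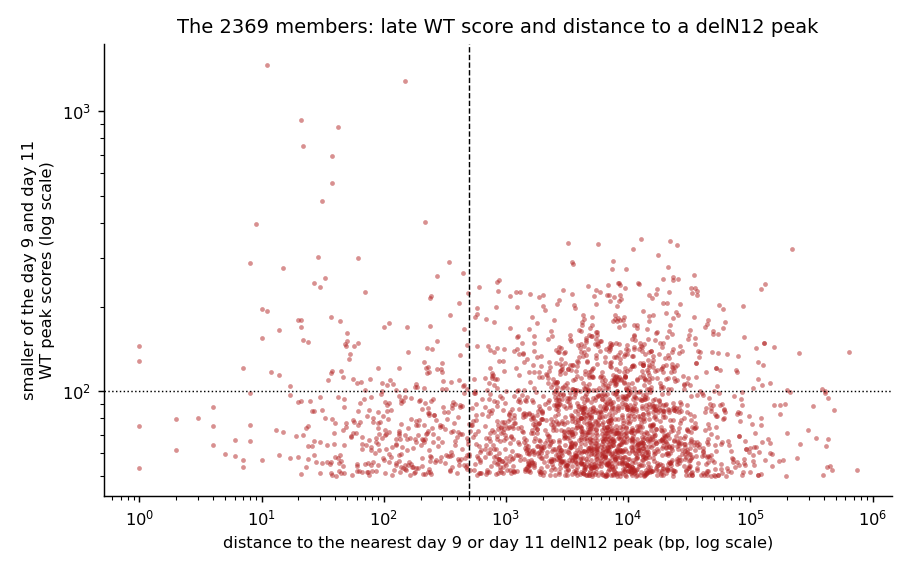
Each point is one of the 2369 members, placed by the distance to its nearest late delN12 peak (bp, log scale, a distance of 0 drawn at 1) and by the smaller of its day 9 and day 11 WT scores (log scale), with lines at 500 bp and at a score of 100. The points with scores over 400 all lie left of the 500 bp line, and most members lie to its right with scores under 100.

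The strongest example was at the promoter of *Zzz3*, a subunit of the ATAC histone acetyltransferase complex (chr3:152395259-152395590, 48 bp upstream of the start site). It scored 134 in MEFs, 331, 1910, 1469 and 2013 with WT at days 1, 5, 9 and 11, and 1195 with delN12 at day 1. No delN12 peak overlapped it at days 5, 9 and 11, but delN12 peaks with scores of 1345 and 1637 began 16 bp away at day 9 and 11 bp away at day 11. The same held at *Btg1*, an antiproliferative gene (chr10:96617534-96618619, intron). Its late WT scores were 1284 and 1662, and delN12 peaks of 1343 and 1096 stood 365 and 150 bp away. Sites at *Rab22a*, a small GTPase (chr2:173658953-173659467), *Ldha*, lactate dehydrogenase A (chr7:46838119-46838638), *Mgmt*, a DNA repair enzyme (chr7:136894059-136894287), *Hbs1l* (chr10:21296153-21296471) and *Myb* (chr10:21145292-21145513, exon) had late WT scores from 480 to 1541 and delN12 peaks 21 to 198 bp away with scores from 289 to 1415. The site at *Rara*, the retinoic acid receptor alpha (chr11:98960077-98960569, intron), scored 403 and 412 late with WT, with delN12 peaks of 235 and 146 at 218 and 239 bp. At these 8 sites delN12 peaks were still called next to the MEF peak at both late days. In *Sh3bp5* (chr14:31428524-31428680, intron) the late WT scores were 452 and 396, and the neighbouring delN12 peak, 9 bp away at day 9, scored 80.1.

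The 12 members outside chromosome 18 with the highest late WT scores and no late delN12 peak within 500 bp, picked by the same ranking after this had been seen, give the pattern without such neighbours. All 12 had a WT peak at days 1, 5, 9 and 11. With delN12, 8 of them had a peak at day 1 and 9 at day 5, each with a lower score than WT at the same day except *St18* at day 1. The site in an intron of *Nr2c1*, an orphan nuclear receptor (chr10:94174699-94174959), scored 207 in MEFs. It scored 395, 635, 736 and 350 with WT at days 1, 5, 9 and 11, and 232 and 154 with delN12 at days 1 and 5. SALL4 Cut&Tag gave a peak of 298 there with WT and none with delN12. The *Papln* site (chr12:83792685-83793079) scored 203 in MEFs, then 146, 476, 344 and 379 with WT, and 77.9 with delN12 at day 1 alone. Its SALL4 peak scored 328 with WT, none was called with delN12, and neither form had an H3K27ac peak. At both sites the WT scores from day 5 on were above the MEF score, and the delN12 score was below that of WT at day 1, although scores are not scaled between libraries.

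The highest MEF scores among these sites were at *Ucp1* and *Sptbn1*. The site upstream of *Ucp1*, the uncoupling protein of brown fat (chr8:83278248-83278805, between genes, 11825 bp from the start), scored 1308 in MEFs. It scored 576, 517, 346 and 306 with WT and 179 and 56.9 with delN12 at days 1 and 5. The intronic *Sptbn1* site (chr11:30243359-30244023, in the gene of a beta-spectrin) scored 817 in MEFs, then 162, 377, 339 and 445 with WT and 54.9 with delN12 at both day 1 and day 5. Both had a SALL4 peak with WT (323 and 191) and none with delN12. The delN12 scores were the lower ones at each day at both sites.

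Of the rest, the sites in *Cdk14* (chr5:5326832-5327077, intron, a cyclin-dependent kinase), near *Ppp1r3g* (chr13:35994041-35994276, intron of *Lyrm4*), near *Slitrk1* (chr14:109214932-109215199, 300908 bp from its start) and near *Hpn*, the membrane protease hepsin (chr7:31115552-31115956, 464 bp upstream of its start), had SALL4 peaks with WT only, with scores from 84.8 to 290. The sites near *Wdr35* (chr12:8961503-8962168, intron of *Matn3*), *St18* (chr1:6457868-6458233), *Rai14* (chr15:10791489-10791859) and *Atp6v0d2*, a subunit of the vacuolar proton pump (chr4:19922471-19922686, exon, 26 bp downstream of the start), had SALL4 peaks in both forms, from 174 to 287 with WT and from 84.8 to 173 with delN12. At day 1 the *St18* site scored 266 with WT and 299 with delN12. Thus 8 of the 12 had a SALL4 peak with WT only and 4 in both forms.

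**Figure D2:**
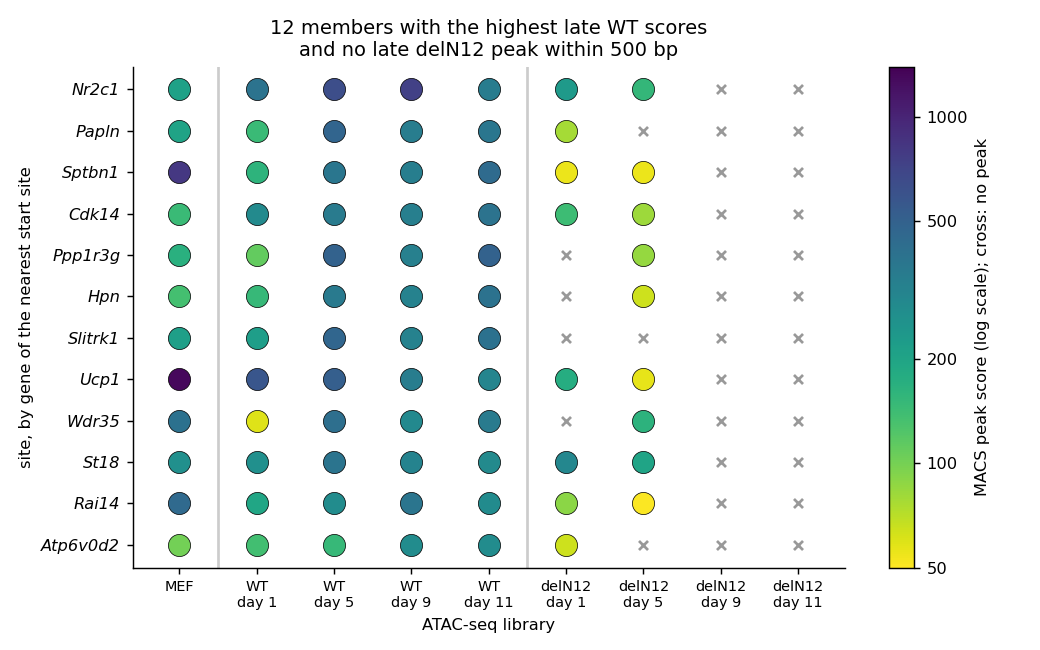
Rows are the 12 members with the highest late WT scores and no late delN12 peak within 500 bp, named by the nearest start site, and columns are the 9 ATAC-seq libraries, with the MACS score as colour (log scale) and a cross where no peak overlapped. All 12 carry a WT peak at each day, and the delN12 columns hold 8 peaks at day 1, 9 at day 5 and, by the choice of sites, none at days 9 and 11.

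Days 1 and 5 were not used to choose the members. At day 1, 1365 members (57.6%, 95% Clopper-Pearson interval 55.6 to 59.6, which covers counting of sites only) overlapped a WT peak and 1055 (44.5%, 42.5 to 46.6) a delN12 peak. Over all MEF peaks above the limit these shares were 52.6% and 64.5%, so the order of the forms was the opposite of that at the members. At day 5, 1863 members (78.6%, 76.9 to 80.3) had a WT peak and 772 (32.6%, 30.7 to 34.5) a delN12 peak, against 63.2% and 61.6% over all. The mirror sites showed the reverse, with 13.1% (WT) and 67.7% (delN12) at day 1 and 19.9% and 69.6% at day 5. The WT share of members was the higher one in each of 5 bands of the MEF score at both days. At day 5 the WT and delN12 shares were 75.7% and 30.5% for MEF scores from 100 to 150 and 79.5% and 42.7% for scores of 500 or more. All MEF peaks in these bands had 42.6% and 36.2%, and 88.8% and 91.6%. At scores of 500 or more the WT share of members was thus below that of all sites. At day 1 it was also lower in that band, with 74.3% against 84.1%. With both day 5 lists cut to their 78517 best peaks, an alternative added after seeing the data, the shares were 68.0% and 26.1%. With sites chosen on day 11 alone (8903 sites) the day 1 order turned, with 51.7% for WT and 54.9% for delN12, while at day 5 it was 71.5% and 48.0%.

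The days with a peak differed between members. With delN12, 1025 members (43.3%) had no peak at any of the 4 days, 572 (24.1%) had one at day 1 only, 483 (20.4%) at days 1 and 5, and 289 (12.2%) at day 5 only. With WT, 1191 members (50.3%) had a peak at all 4 days, 672 (28.4%) lacked it at day 1 only and 332 (14.0%) lacked it at both day 1 and day 5. In 417 members (17.6%) the WT peak was present on all 4 days and no delN12 peak was called on any. The WT share was thus higher at day 5 than at day 1, whereas the delN12 share was lower at day 5. The late WT peaks are there by the choice of sites, and the day 1 WT list was the shorter one, with 83821 peaks against 94828 for delN12.

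**Figure D3:**
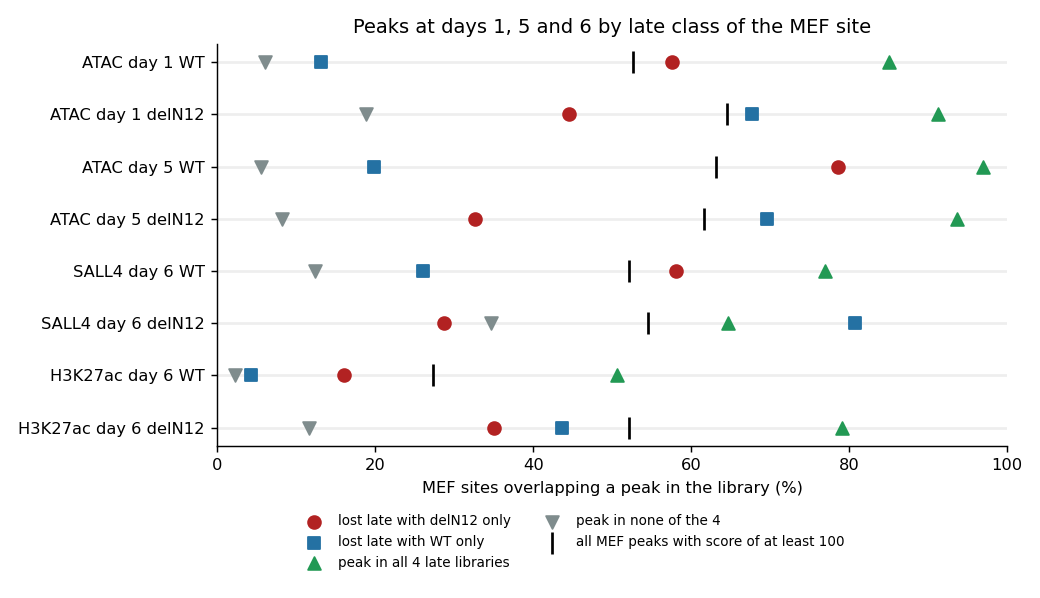
Points give the share of MEF sites that overlap a peak (%, horizontal axis) in each of the 4 early ATAC-seq and 4 Cut&Tag libraries (rows), by late class of the site, and the black bar is the share over all MEF peaks with a score of at least 100. The members (red) lie right of the bar in each WT ATAC-seq row and the WT SALL4 row and left of it in each delN12 row, with day 5 ATAC shares of 78.6% and 32.6% at day 5.

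SALL4 occupancy at day 6 differed between the forms at the members. A SALL4 peak was called at 1377 members (58.1%, 56.1 to 60.1) with WT and at 679 (28.7%, 26.8 to 30.5) with delN12, against 52.2% and 54.6% over all MEF peaks above the limit. The mirror sites had 26.1% and 80.8%, the kept sites 77.0% and 64.7%, and the closed sites 12.4% and 34.7%. At MEF scores of 500 or more the members had 68.4% and 51.5%, both below the 81.2% and 76.4% of all sites. At the members, 835 (35.2%) had a SALL4 peak with WT only, 542 (22.9%) in both forms, 137 (5.78%) with delN12 only and 855 (36.1%) in neither. Over all MEF peaks above the limit these shares were 14.7%, 37.5%, 17.1% and 30.7%, in the same order. The lists are of similar length (69475 and 67310 peaks), and cut to the same length they gave 56.9% and 28.7%. The SALL4 calls were also read by the day 5 state. Among 1215 members with a day 5 ATAC peak in WT only, 62.0% had a WT SALL4 peak and 21.5% a delN12 one. Among 382 members without a day 5 peak in either form the shares were 34.6% and 30.1%, and among 124 with a delN12 peak only they were 45.2% and 45.2%. At the 648 members with a day 5 peak in both forms the shares were 67.3% and 38.1%, and at all such MEF sites 76.7% and 64.8%. Across all MEF peaks above the limit they were 45.6% and 25.8% at sites open in WT only and 32.5% and 78.5% at sites open in delN12 only. Where neither form had a day 5 peak they were 15.1% and 38.4%, the opposite order to that at the members. The WT share of members was thus the higher one also where both forms had a day 5 peak, and the shares were equal where delN12 alone had one.

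H3K27ac at the members depended on which sites they were set beside. A peak was called at 380 members (16.0%, 14.6 to 17.6) with WT and at 832 (35.1%, 33.2 to 37.1) with delN12, against 27.3% and 52.2% over all, 50.6% and 79.1% at the kept, 4.30% and 43.7% at the mirror and 2.24% and 11.6% at the closed sites. At MEF scores from 100 to 150 the members had 16.4% and 32.4% and all sites 12.9% and 32.0%, and at scores from 150 to 200 they had 18.4% and 33.4% against 14.5% and 36.9%. In the bands from 200 upward the members had the lower share in both forms. Over 2 kb from a start site the shares were 12.9% and 31.1% for members and 13.8% and 42.0% for all sites. The delN12 list is much the longer one, with 45599 peaks against 19841. With both cut to 19841 peaks, the members had 16.0% with WT and 11.7% with delN12, and all sites 27.3% and 30.7%, so the order of the forms at the members turned with the length of the lists, an alternative added after seeing the data. In 1461 members (61.7%) neither form had the mark, in 304 (12.8%) both had it, in 528 (22.3%) delN12 only and in 76 (3.21%) WT only. Over all sites these shares were 46.6%, 26.1%, 26.1% and 1.20%, in the same order. Where a delN12 ATAC peak stood within 100 bp, 43.6% (WT) and 74.0% (delN12) of members had the mark, and where the nearest was over 5 kb away 7.92% and 24.4%.

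The members were more often distal than the average MEF site. Within 2 kb of a protein-coding start site lay 397 members (16.8%), against 24.8% over all, 42.6% of kept, 7.69% of mirror and 5.49% of closed sites. Of the members without a late delN12 peak within 500 bp, 238 (12%) were that close to a start. Exons held 10.4% of members, introns 47.4%, and 42.1% lay outside protein-coding genes. The median distance to a start was 23476 bp, against 37978 bp for mirror and 6707 bp for kept sites, and the median width was 277 bp. Members were spread over the genome. On the autosomes they made up from 2.66% (chromosome 17) to 3.64% (chromosome 11) of the MEF peaks above the limit, and only 114 (4.81%) had another member within 10 kb, compared with 120 (5.49%) of the mirror sites. 

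Sequence strings were searched on both strands in the 200 bp around the peak centre, as shown for the 6 sites above. Members were richer in G and C than mirror and closed sites but not than kept sites. The medians were 52.0% for members, 45.5% for mirror, 44.5% for closed and 55.0% for kept sites, and 50% over all. Over 2 kb from a start site, members and kept sites were both at 51.0%. The AP-1 string TGANTCA occurred in 685 members (28.9%), close to the 27.7% over all and below the 33.7% of mirror and 31.7% of closed sites. The TEAD string CATTCC was found in 18.4% of members, 30.6% of mirror and 19.7% of all sites. The RUNX string TGTGGT stood at 17.1%, 27.4% and 18.3% in the same order. The GATA string AGATAA, read by the factors of PrE, stood at 6.42%, 11.4% and 6.91%. For the SOX string ACAAAG the shares were 11%, 17.6% and 13.6%, and for the E-box CATCTG, which bHLH factors such as TWIST read, they were 16.0%, 24.4% and 17.2%. The AT-rich string AATATT, of the kind bound by SALL4, was found in 60 members (2.53%), 8.24% of mirror, 10.1% of closed and 4.63% of all sites. In these 200 bp windows all of these were less frequent at the members than at the mirror sites, but in the central 50 bp the AP-1 string was found in 11.3% of members and 10.8% of mirror sites. The part of base composition in this was not tested. The other strings were CEBP (TTGCNNAA), FOX (TGTTTAC), OCT (ATGCAAAT), ETS (CCGGAAG), SP (GGGGCGGGG) and the CArG box, and they were found in 0.591% to 7.98% of members and 1.00% to 8.29% of all sites. Of these, ETS was found in 1.77% of members, 0.962% of mirror and 3.08% of all sites, and SP in 2.15%, 1.01% and 3.46%.

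For CTCF, KLF and NFI, as for ETS and SP, the members had the higher share of the 2 classes, and for CTCF, KLF and NFI, but not for ETS and SP, they were also above all sites. The CTCF motif was present in 123 members (5.19%), against 1.37% of mirror, 0.900% of closed, 4.51% of kept and 3.81% of all sites, and in the central 50 bp it was present in 3.12% of members and 0.733% of mirror sites. The 20208 MEF sites with any other late pattern, which include those 1 late delN12 peak short of the rule, had it in 5.01% and, in the central 50 bp, in 2.67%, so a share near that of the members was found there too. With sites chosen on day 9 or day 11 alone the share was 6.39% and 5.60%, and with MEF scores from 200 it was 2.80%. The 3.81% of all sites is for scores from 100, and no CTCF share of all sites was computed for scores from 200. Away from start sites, it was present in 6.03% of members, 1.24% of mirror, 6.55% of kept and 4.46% of all sites. Read from the motif, 123 of the 2865 MEF peaks that hold it (4.29%) were members, 30 (1.05%) mirror and 1554 (54.2%) kept sites. The CTCF members were the weaker MEF peaks, with a median score of 144, and their share was 2.24% among the 624 members whose late WT scores were both at least 100. SALL4 peaks were called at 12.2% (WT) and 2.44% (delN12) of them, and at 23.8% and 17.2% of all MEF peaks with the motif. An ATAC peak at day 5 was called at 70.7% and 30.9% of them, and at 81.7% and 61.6% of all with the motif. SALL4 shares below those of other MEF sites were thus common to sites with the motif. *Ctcf* RNA was at 13.5 FPKM (WT) and 13.9 FPKM (delN12) at day 11. The KLF string GGGTGTGG was found in 85 members (3.59%), against 1.83% of mirror and 2.45% of all sites, and in 20 of the 397 members within 2 kb of a start site (5.04%), where 2.38% of mirror and 2.58% of all sites held it. The NFI string TTGGCA was found in 393 members (16.6%), against 13.6% of mirror, 17.5% of closed and 13.1% of all sites. A match of letters is not a measured binding site.

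**Figure D4:**
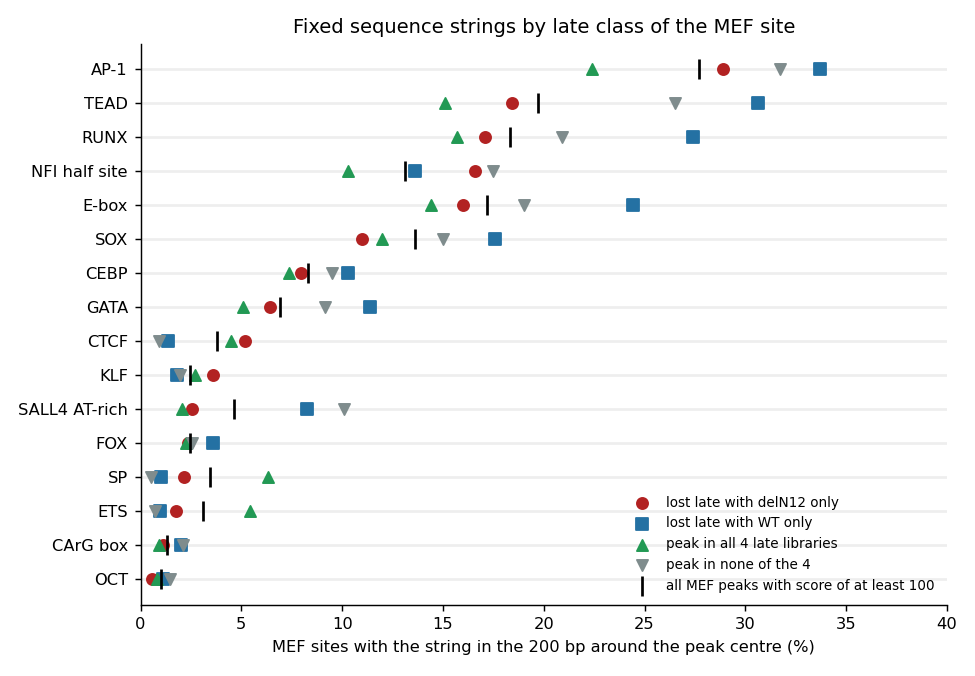
Points give the share of MEF sites (%, horizontal axis) that hold each of 16 fixed strings, on either strand, in the 200 bp around the peak centre, by late class, with the black bar for all MEF peaks with a score of at least 100. For AP-1, TEAD, RUNX, E-box, SOX and GATA the members (red) lie left of the mirror sites (blue), and for NFI, CTCF and KLF they lie right of them.

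RNA was compared at the genes whose protein-coding start site was nearest to a member, within 100 kb. The 1921 members in reach fell to 1717 genes, of which 1669 were listed in the FPKM table and 1210 had at least 1 FPKM in 1 of the 8 libraries. Values are differences of log2(FPKM+1), delN12 minus WT, and a gene counts as past the fold at a difference of 1 or more in size. At day 11, 136 of these genes (11.2%) were lower with delN12 past the fold and 63 (5.21%) higher, while over all 14741 genes tested the shares were 6.23% lower and 6.20% higher. At day 9, 124 (10.2%) were lower and 58 (4.79%) higher, against 5.26% and 5.57% over all. At day 5, 119 (9.83%) were lower and 52 (4.30%) higher, against 4.71% and 4.23%. At day 1, 88 (7.27%) were lower and 57 (4.71%) higher, against 4.88% and 3.63%. The median difference near members was -0.06, -0.11, -0.09 and -0.16 at days 1, 5, 9 and 11, against -0.02, -0.01, 0.02 and 0.00 over all genes. Most genes near a member were not past the fold in either direction, and with no filter on low FPKM the medians at days 9 and 11 were -0.02 and -0.06. Beside these values, 6 of the 11 fibroblast markers were lower and 1 higher past the fold at day 9, and 5 lower and 0 higher at day 11. Their summed FPKM was the higher one with delN12 at day 9 and the lower one at day 11. *Col1a1* alone gave 1356 FPKM of the day 9 sum with delN12 and 727 with WT. The part of such markers was not tested.

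The share of genes with lower RNA was higher where a gene had more members or a nearer one. For the 131 tested genes with 2 or more members, 31 (23.7%) were lower and 4 (3.05%) higher at day 11, with a median of -0.38, and 24 and 3 at day 9, with a median of -0.29. For the 244 tested genes with a member within 2 kb of the start, 40 (16.4%) were lower and 10 (4.10%) higher at day 11, with a median of -0.27. The 122 genes with a mirror site within 2 kb had 4 (3.28%) lower and 12 (9.84%) higher, with a median of 0.10. The 1013 tested genes near any mirror site had 7.80% lower and 7.60% higher at day 11, with a median of -0.09, and the 107 with 2 or more mirror sites had 8.41% lower and 6.54% higher, with a median of -0.24. Near any mirror site the medians at days 1, 5 and 9 were -0.03, -0.01 and 0.01. The medians near members and near mirror sites thus had the same sign at day 11, outside the 2 kb group. At day 9 the signs differed for genes near any site, with -0.09 for members and 0.01 for mirror sites. For genes with 2 or more sites they were the same at day 9, with -0.29 for members and -0.08 for mirror sites. Genes near closed sites, which lost the peak in both forms, also leaned lower with delN12, with 9.50% lower, 5.06% higher and a median of -0.12 at day 11. For genes with at least 2 closed sites the median was -0.22 and the share lower 12.7%.

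**Figure D5:**
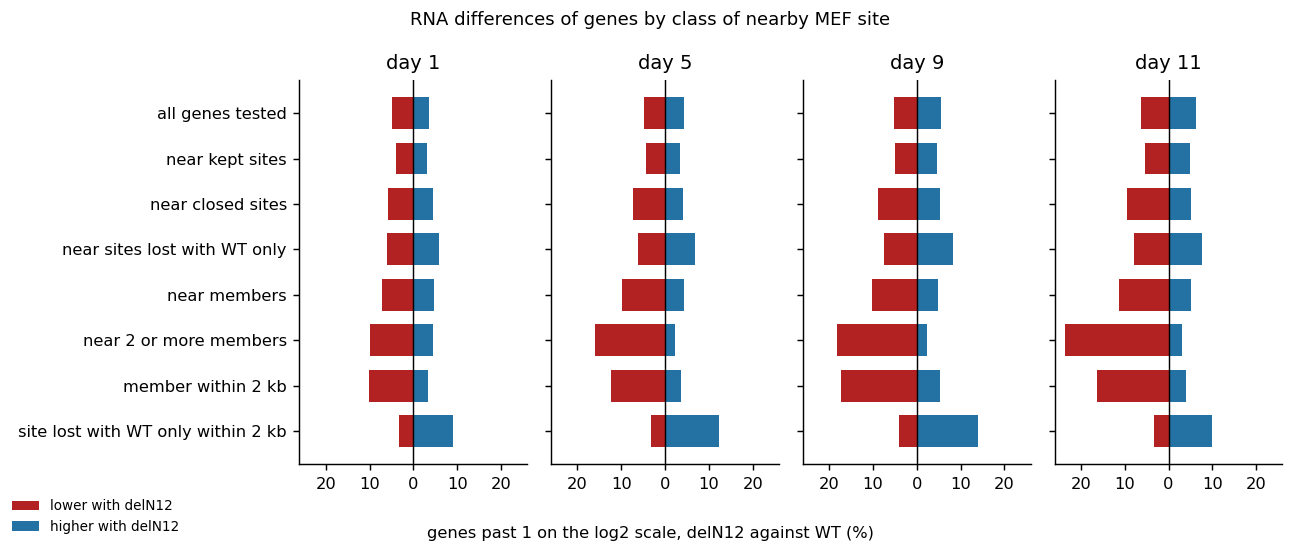
Bars give the share of genes (%) with RNA lower (red, to the left) or higher (blue, to the right) by at least 1 on the log2 scale with delN12 than with WT, at days 1, 5, 9 and 11, for all genes tested and for genes grouped by nearby MEF sites. At day 11 the bars for genes near 2 or more members reach 23.7% on the left and 3.05% on the right, and those for genes with a mirror site within 2 kb reach 3.28% and 9.84%.

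The 5 genes with the lowest late values among those with 2 or more members have varied roles. *Emilin2*, an elastic fibre glycoprotein, has 2 members, 9 and 4157 bp from its start, and read 23.5, 157, 161 and 181 FPKM with WT at days 1, 5, 9 and 11 against 6.48, 21.8, 28.4 and 22.0 with delN12. *Dpt*, the matrix protein dermatopontin, read 15.3 and 20.9 FPKM with WT and 3.35 and 3.14 with delN12 at days 9 and 11. *Slit3*, an axon guidance ligand made by mesenchymal cells, read 14.2 and 15.6 against 3.08 and 3.49. The others were *Nrg1*, an ErbB ligand, at 4.79 and 0.686 FPKM at day 11, and *Chga*, a secretory granule protein, at 18.7 and 1.48. In *Dpt* and *Slit3* the order was the opposite at day 1, with 9.42 FPKM (delN12) and 4.36 (WT) for *Dpt* and 9.88 and 5.14 for *Slit3*. These genes were picked for their late differences.

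At the other extreme, *Habp2*, a plasma serine protease, read 0.685 FPKM with WT and 9.93 with delN12 at day 11, with 2 members 118 and 7239 bp from its start. *Gdpd5*, a phosphodiesterase, read 2.63 and 10.5, *Cx3cl1*, the chemokine fractalkine, 4.80 and 13.7, *Gipc2* 1.25 and 3.55, and *Pxylp1* 6.82 and 9.68. Genes with members thus include some with higher and some with lower RNA.

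The most members fell to *Dab2ip* (5) and *Ank3* (4), and 21 genes had 3, of which 10 are described, taken by expression of at least 1 FPKM and then by summed MEF score. *Dab2ip*, a RAS GTPase activating protein, had 5, of which 3 had no late delN12 peak within 500 bp. Its RNA was 13.6 FPKM with WT and 7.94 with delN12 at day 11, and 10.1 and 15.7 at day 1. *Smad6*, an inhibitor of BMP signalling, had 3 members 44878 to 53293 bp from its start, all without a late delN12 peak within 500 bp. It read 20.1, 22.0, 22.7 and 16.7 FPKM with WT and 6.02, 7.36, 8.78 and 16.4 with delN12 at days 1, 5, 9 and 11, so that the difference was -1.28 on the log2 scale at day 9 and -0.02 at day 11. *Adamts2*, a procollagen protease, had 3 members and read 4.42, 8.36, 17.7 and 27.5 FPKM with WT and 3.94, 3.47, 5.62 and 6.11 with delN12. *Sptbn1* had 3 members and read 25.4 and 12.2 FPKM at day 11. *Anxa3*, an annexin, had 3 members and 2 mirror sites and read 65.4 and 50.4 FPKM at day 11. *Ank3*, an ankyrin, had 4 members beside 3 mirror sites, and its RNA was at 1.88 FPKM with delN12 against 1.25 with WT at day 11. The other 6 (*Galnt2*, *Hhat*, *Tcf7l2*, *Pknox2*, *Adra1b* and *Adgra3*) had day 11 differences from -0.95 to 0.36.

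Of 25 mesenchymal transcription factors, 9 had a member, with 10 members in all against 4 mirror sites. Of the 16284 genes near any MEF peak above the limit, 1717 had a member. That share takes no account of the number of MEF peaks per gene. At the 9 factors this number ran from 3 (*Foxc2*) to 24 (*Runx1*), and its part in the count was not tested. Of the 9 factors, *Zeb2*, *Foxc2* and *Nfib* were lower past the fold at day 11. Over the 22 tested, with and without a member, 8 were lower past the fold with delN12 at day 11 and 0 higher, with a median of -0.73. Over all 14741 genes tested, 6.23% were lower and 6.20% higher at that day. *Zeb2*, a repressor that drives epithelial to mesenchymal transition, had a member in an exon 178 bp from a start site (chr2:45117060-45117373). This site scored 112 in MEFs, 103, 190, 146 and 123 with WT at days 1, 5, 9 and 11, and 59.8 with delN12 at day 5 only. Its SALL4 peak was called with delN12 only (56.3), and H3K27ac scored 114 with WT and 211 with delN12. *Zeb2* RNA was 6.94, 7.63, 9.99 and 11.1 FPKM with WT and 3.28, 4.15, 3.91 and 3.94 with delN12. *Foxc2*, a mesenchymal forkhead factor, had a member 630 bp from its start (chr8:121116378-121117223) that had no WT peak at day 1 and WT scores of 82.3, 278 and 53.0 at days 5, 9 and 11. With delN12 it scored 252 and 54.5 at days 1 and 5, and late delN12 peaks of 159 and 152 stood 150 and 170 bp away. SALL4 was called there with WT only (144), and H3K27ac scored 101 with WT and 53.2 with delN12. *Foxc2* RNA was 3.27 (WT) and 1.10 FPKM (delN12) at day 11. *Nfib* had 1 member, 83959 bp away, and read 11.1 and 2.78 FPKM at day 11. *Zeb1*, *Tead1* and *Nfix* had day 11 differences of -0.59, -0.62 and -0.73, while *Twist2* and *Runx1* read higher with delN12, by 0.34 and 0.59, and *Mkx* was at 0.10. Both *Runx1* members had a late delN12 peak within 500 bp.

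Of 30 fibroblast matrix and contractile genes, 7 had a member, with 7 members in all against 9 mirror sites. Among the 16284 genes near any MEF peak above the limit, 1717 had a member. The 7 genes here held from 5 (*Col6a1*, *Eln*) to 23 (*Col5a1*) such peaks, which that share does not allow for. At day 11, 10 of the 30 were lower past the fold and 5 higher, with a median of -0.30, whereas at day 9 there were 9 and 5 with a median of 0.15, and at day 1 there were 5 and 8 with a median of 0.02. Over all genes tested, the shares lower and higher were 6.23% and 6.20% at day 11, 5.26% and 5.57% at day 9, and 4.88% and 3.63% at day 1. *Col6a1*, a chain of collagen VI, had a member at its start site (chr10:76725983-76726316, exon, 18 bp from the start) that scored 402 in MEFs, 55.7, 134, 98.9 and 186 with WT at the 4 days and 124 and 64.6 with delN12 at days 1 and 5. SALL4 (80.1) and H3K27ac (89.4) peaks were called there with delN12 only. The nearest late delN12 peaks were 6510 bp away at day 9 and 556 bp away, with a score of 72.1, at day 11. *Col6a1* RNA was 122, 260, 265 and 237 FPKM with WT and 245, 80.7, 121 and 36.6 with delN12, so delN12 was higher at day 1 and lower from day 5. *Col5a2* read 80.0 and 31.3 FPKM at day 11. *Col1a1*, *Col5a1* and *Sparc*, whose members lie 41333 to 61876 bp away, read higher with delN12 at all 4 days, and *Cald1* was past the fold at no day. *Eln*, elastin, read 25.8 FPKM with WT and 53.3 with delN12 at day 9, a difference of 1.02, and 18.4 and 11.5 at day 11, a difference of -0.64. Members near these genes thus stood beside RNA differences of both signs.

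Of the 17 symbols of TGF-beta and YAP targets, which name 15 genes, 6 had a member, with 9 members in all against 4 mirror sites. This count, and those of the AP-1 family and PrE lists below, stand beside the 1717 of 16284 genes near any MEF peak that had a member. Peak number is again left out of that share, and the 6 genes held from 6 (*Ccn2*, *Tgfbr1*) to 28 (*Smad7*) MEF peaks above the limit. *Smad3*, the receptor-activated transducer of TGF-beta, had 1 of its 2 in an intron 616 bp from a start site (chr9:63666869-63667456), with scores of 231 in MEFs, 151, 121 and 54.7 with WT at days 5, 9 and 11 and 84.2 with delN12 at day 5. SALL4 was called there with WT only (75.5) and H3K27ac with delN12 only (93.9). Its RNA was 14.8 and 11.1 FPKM at day 11. *Tgfbr2*, the type II receptor, read 74.9 and 36.8 FPKM, with a difference of -1.0, and *Tgfbr1*, the type I receptor, 8.22 and 8.80. *Smad7*, the inhibitory SMAD, read 9.63 and 15.7, and *Tgfbi*, a secreted matrix protein, 19.5 and 93.5. For *Ccn2*, a matricellular YAP target with 1 member and listed in the FPKM table as *Ctgf*, RNA was at 23.1, 16.6, 16.1 and 18.2 FPKM with WT and 7.87, 5.33, 5.01 and 13.1 FPKM with delN12 at days 1, 5, 9 and 11. Of the 12 AP-1 family genes 1, *Batf3*, had a member, and the list had 1 mirror site. Of the 12 PrE genes, *Pitx1* and *Foxa2* had 1 each, 75010 and 66447 bp away, and both read higher with delN12 at day 11, at 119 against 14.3 FPKM and 7.68 against 0.462 FPKM. The list had 3 mirror sites. With or without a member, 10 of its 12 genes were higher past the fold at day 11 and 0 lower, against 6.20% and 6.23% of all genes tested.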

How the data were processed

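ATAC-seq peak lists (9 libraries), Cut&Tag peak lists (4) and an RNA-seq table (8 libraries) were used, with groups taken from the labels. Per the study's methods and the submitters' processing notes, reads were trimmed with Trim Galore 0.6.4 and aligned to mm10 with Bowtie2 2.4.5 (SAMtools 1.16.1) or HISAT2 2.2.1, peaks were called with MACS 1.4.2, and expression was estimated with StringTie 2.2.1. The deposited peak lists give a score per peak, the MACS value that scales with the negative log10 of p and depends on depth, and Cut&Tag replicates were merged by the authors before calling. The deposited RNA values are FPKM per gene, normalized by the authors. Read depth is not given in the sources used here, so intervals cover counting of sites only. Single-cell counts and FPKM columns of cultures with other factors were not used here.

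Overlaps of 1 bp or more, distances to protein-coding start sites (GENCODE, within 2 kb for promoters and 100 kb for nearby genes), strings in the genome and differences of log2(FPKM+1), over genes with at least 1 FPKM in 1 library, were computed with Python 3.11.15, pandas 2.3.3, numpy 2.4.6 and SciPy 1.17.1. The scripts were tested on simulated data. Of the 1717 nearby genes, 1669 matched the FPKM table by symbol. The members and the gene lists were chosen with earlier results of these data known.

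The sites named were the 12 members with the highest smaller late WT score outside chromosome 18, members within 1 kb of a start site of a listed gene and, added after seeing the data, the 12 highest without a late delN12 peak within 500 bp. The printed CTCF and KLF sites were also picked after their values were seen. The genes named were the 12 with the most members (ties by summed MEF score), every listed gene with a member, and the 5 lowest and 5 highest by late difference among genes with 2 or more members and at least 5 FPKM in a late library. Alternatives covered the MEF and late score limits, the overlap, the list lengths, single late days, the string window, the distances, the pseudocount and the FPKM filter.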

Additional observations from a re-analysis of the deposited data

How the results depend on the processing

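Each form and day has 1 list or column, so no replicate could be left out, and the spread between cultures, the depth of the libraries and the number of cells of each type are unknown. No replicate numbers pair the groups, and a fit with the days as pairs was not run. Late WT peaks of members stood near the calling floor, so the depth of the delN12 lists limits what absence of a peak means. Of 145 alternative values, 60 stayed within the interval or tolerance set for the value and 85 did not. The median RNA difference was below 0 in 28 of 28 alternatives, but these reuse the same 8 RNA columns and overlapping genes and are not separate checks. At day 11 the medians near closed sites (-0.12) and near mirror sites (-0.09) were below 0 too. The order of the forms turned for day 1 ATAC with day 11 alone and for H3K27ac with lists of equal length. Members outnumbered mirror sites by the rule (2369 and 2184), and the order turned with MEF scores from 200, with day 9 alone and with each ATAC list cut to equal length.

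With MEF scores from 50, there were 4451 members and 3309 mirror sites, and members had WT and delN12 ATAC peaks in 51.5% and 37.5% at day 1 and 76.5% and 29.0% at day 5, SALL4 peaks in 55.8% and 26.1%, and AP-1 strings in 26.7%. All MEF sites from 50 had 39.1% and 48.1% at day 1, 48.9% and 45.7% at day 5, and SALL4 in 42.4% and 45.6%. With MEF scores from 200, there were 999 and 1207, with 64.7% and 53.4% at day 1, 81.8% and 36.6% at day 5, SALL4 in 64.8% and 35.0%, delN12 H3K27ac in 38.3%, AP-1 in 31.9%, 13.1% near a start site, and RNA medians of -0.15 (day 9) and -0.21 (day 11). All MEF sites from 200 had 65.9% and 79.1% at day 1, 74.8% and 76.3% at day 5, and SALL4 in 63.1% and 64.0%. At these scores the WT share of members was below that of all sites at day 1, and the WT SALL4 share was close to it.

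With both late peaks of a class scoring at least 100, there were 624 members and 578 mirror sites, with 75.8% and 54.0% at day 1, 94.9% and 39.6% at day 5, SALL4 in 77.9% and 30.6%, H3K27ac in 25.2% and 42.1%, AP-1 in 30.9% and RNA medians of -0.18 and -0.21. Without members that had a delN12 peak within 500 bp, delN12 SALL4 stood at 26.7%, H3K27ac at 11.3% and 28.1%, AP-1 at 31.1% and start sites at 12%. With each ATAC list cut to the length of the shortest late list, there were 2209 members and 2508 mirror sites, and the shares were 60.8% and 39.7% at day 1, 76.2% at day 5 (WT), SALL4 62.6% and 30.6%, and H3K27ac 19.5% and 38.8%.

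Day 9 alone gave 6232 members and 8055 mirror sites, with 50.8% at day 1 (WT), 71.2% and 35.2% at day 5, WT SALL4 in 50.6%, and RNA medians of -0.05 and -0.11. Day 11 alone gave 8903 and 5135, with 51.7% and 54.9% at day 1, 71.5% and 48.0% at day 5, SALL4 in 53.4% and 42.4%, delN12 H3K27ac in 42.2%, AP-1 in 32.2%, start sites in 14.7%, and RNA medians of -0.05 and -0.11. The day 1 order of the forms was thus the other way with day 11 alone. With either day alone the WT share at day 1 was below the 52.6% of all sites. AP-1 was found in 11.3% within 50 bp and 33.0% within 300 bp (10.8% and 39.3% of mirror, 9.88% and 32.4% of all sites), and 14.3% of members lay within 1 kb of a start. RNA medians were -0.02 and -0.06 with no FPKM filter, and -0.15 at day 9 with start sites within 10 kb. The CTCF share, 5.19%, was 2.80% with MEF scores from 200 and 2.24% with late WT scores from 100.

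Of the alternatives added after seeing the data, cutting Cut&Tag lists to equal length gave delN12 H3K27ac in 11.7%, cutting the day 1 and day 5 lists gave 55.0% and 35.2% at day 1 and 68.0% and 26.1% at day 5, and genes with 2 or more members had RNA medians of -0.29 and -0.38. The causes of these shifts were not tested.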
